A study of Homo sapiens with 9 samples.

Results

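The genes described here are 9 targets of the hypoxia-inducible factors (HIFs) that are used as readouts of HIF activity in clear cell renal cell carcinoma (ccRCC): CA9, CA12, VEGFA, ADM, ANGPTL4, CCND1, IGFBP3, NDRG1 and PLIN2. They were taken by symbol from a table of 28395 genes, in which all 9 have a row, and 8 of them were among the 12695 genes tested, which averaged 50 counts or more a library. CA9 fell short of this filter on low counts. RNA was sequenced from 3 established human kidney lines grown stably in full Plasmax, a medium modelled on human plasma, with no treatment, and each line gave 3 libraries. HK2 is an immortalized line of normal proximal tubule cells and the reference in this design. 786-O comes from a primary ccRCC, and 786-M1A is its derivative from lung metastases that formed after injection in vivo, so that the metastatic state is represented by a single derived line. HK2 and the cancer lines also differ in donor, and disease and donor cannot be told apart.

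HIF is a pair of an alpha subunit, encoded by HIF1A or EPAS1 (HIF2A), and the partner ARNT. When oxygen is present, prolyl hydroxylases mark the alpha subunit and the VHL protein directs its destruction, while low oxygen or loss of VHL lets it accumulate and bind hypoxia response elements with the core ACGTG or GCGTG. 786-O is known as a line without working VHL and without a functional HIF1A protein. The known targets cover acid handling (the surface carbonic anhydrases CA9 and CA12), blood vessels (VEGFA, ADM, ANGPTL4), growth (CCND1, IGFBP3), the stress response (NDRG1) and lipid droplets (PLIN2). Clear cell tumors take their name from stored lipid and glycogen.

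Stretches before transcription starts of RefSeq are shown because they hold the letters of the hypoxia response core. Promoter windows of RefSeq (GRCh38.p14), which cover the bases just before each start and the first of the transcript and are all of 1 length, were matched for 6 of the 9 genes. VEGFA, CCND1 and NDRG1 were not matched. For ANGPTL4, IGFBP3 and PLIN2 the RefSeq start lies inside the span that GENCODE gives for the gene, so that their stretches fall within the gene positions given below. Each line below gives 29 bases, 5′ to 3′ on the strand of the gene, with the core in capitals. ACGTG and GCGTG mark the core on the strand of the gene, and CACGT and CACGC mark it on the opposite strand.
CA9, plus strand, chr9:35673898-35673926: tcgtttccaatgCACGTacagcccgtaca
CA12, minus strand, chr15:63382064-63382092: gcggatctcaccCACGCctgccagcagct
ADM, plus strand, chr11:10304960-10304988: gagcaggagcgcGCGTGgctgaggaaaga
ANGPTL4, plus strand, chr19:8363909-8363937: ggaaagaagagtCACGTctcccacggttc
IGFBP3, minus strand, chr7:45921465-45921493: cccgggctccggGCGTGcgcacgaggagc
IGFBP3, minus strand, chr7:45921311-45921339: cgccgttccgggGCGTGtcctgggccacc
PLIN2, minus strand, chr9:19127596-19127624: gagggcgccgggACGTGcccgagggtgac
PLIN2, minus strand, chr9:19127544-19127572: ctgccgcgggtcACGTGctgcggaggctt

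All 6 windows held at least 1 core on either strand, as did 48.4% of the 27305 promoter windows in the table (ACGTG in 21.6%, GCGTG in 36.3%). The windows of CA9 and ANGPTL4 held ACGTG alone, those of CA12, ADM and IGFBP3 held GCGTG alone, and that of PLIN2 held both. In the lower PLIN2 stretch the core lies in the palindrome cacgtg and is therefore read on both strands. The GC content of the 6 windows ran from 62.0% in CA9 to 76.7% in PLIN2, against a median of 58.3% over all windows. These matches are letters in a window and were not tested for binding. A core stood in the windows of CA12, ADM and IGFBP3, whose RNA was far higher in the cancer lines, and also in those of CA9, ANGPTL4 and PLIN2, whose RNA was not. A link between core and RNA level was not tested, and VEGFA, CCND1 and NDRG1 had no window to look at.

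The libraries held between 30212291 and 45362428 counts, and levels are given as CPM, the count scaled to a common library size, after TMM scaling, with the SD over 3 libraries. At this depth 3 counts, the floor used here, correspond to 0.0647 to 0.0964 CPM. Differences are log2 fold changes with their standard errors (SE) from edgeR's quasi-likelihood test on all 12695 genes, and a gene is called at a Benjamini-Hochberg adjusted p under 0.05. The p-values measure the spread between the 3 libraries of a line, which came from replicate dishes of 1 line. With 3 libraries against 3, an exact permutation test of a single gene cannot go below 0.1. Since most genes differ between these lines, a limit of 2-fold is used beside the call. In such bulk samples, a lower level per cell and fewer cells with the RNA cannot be told apart.

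The lines were checked against cell type markers. PAX8, the transcription factor of renal epithelium, lay between 160 and 192 CPM in all libraries, while LRP2 (megalin), a defining proximal tubule receptor, had 0 counts in each of them. Of the 15 proximal tubule markers, 13 were above the floor in each line. EPCAM, an epithelial adhesion protein, lay at 69.2 to 81.2 CPM in HK2, against 0.541 to 0.610 in 786-O, and 8.11 to 9.29 in 786-M1A, and the epithelial cadherin CDH1 at 4.29 to 4.69 CPM in HK2 and at most 0.186 CPM in the cancer lines. The keratins KRT8 and KRT18 were also lower in both cancer lines, KRT8 at 656 to 673 CPM in HK2 and 288 to 409 CPM in the others, and KRT18 at 422 to 429 CPM and 159 to 190 CPM. PTPRC, CD3E, MS4A1, PECAM1, CDH5 and VWF, which define leukocytes and endothelium, did not exceed 3 counts in any library. Of the same lists, CD68 had 1032 to 2356 counts over all libraries, CD14 at most 21, and KDR 0 to 1 counts in HK2, 3 to 11 in 786-O and 33 to 40 in 786-M1A. The summed level of the 5 fibroblast and pericyte markers was 77.6 to 87.0 CPM in HK2, against 282 to 351 in 786-O, and 302 to 306 in 786-M1A. DCN was at or under 3 counts in both cancer lines and COL3A1 in 786-M1A, and the bulk of the sum was COL1A1 in 786-O (261 to 329 CPM) and PDGFRB in 786-M1A (278 to 285 CPM). The part of these markers in the results below was not tested.

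In 786-O, 6 of the 8 tested HIF targets were higher than in HK2 (CA12, VEGFA, ADM, CCND1, IGFBP3 and NDRG1), PLIN2 was lower and ANGPTL4 was not called. In the background of all genes tested, 84.2% were called, 41.6% of them higher and 42.6% lower as shares of all genes. For 5 of the 6 higher genes the difference was over 8-fold, and CCND1 differed by 3.92-fold. All 6 lay at least 2-fold higher, which held for 9.18% of all genes (22.3% were past 2-fold in either direction). The median log2 fold change of the 8 genes was 3.06, against -0.01 for all genes tested.

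Against the same HK2 libraries, 786-M1A gave the same 6 higher genes, PLIN2 lower and ANGPTL4 not called, where 84.9% of all genes were called (41.6% higher, 43.3% lower). The 6 were again at least 2-fold higher, against 10.4% of all genes (25.4% in either direction), and the median log2 fold change was 3.40. Both comparisons rest on the same control libraries. Between the cancer lines, where 56.0% of all genes were called (27.9% higher, 28.0% lower in 786-M1A), 5 targets were higher in 786-M1A (CA12, VEGFA, ADM, CCND1 and PLIN2), none was called lower, and ANGPTL4, IGFBP3 and NDRG1 were not called. VEGFA was the 1 gene past 2-fold, against 2.03% of all genes that were past it in this direction and 6.59% in either. The summed level of the 9 genes was 376 to 387 CPM in HK2, against 2632 to 2976 in 786-O, and 3220 to 3321 in 786-M1A.

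**Figure D1:**
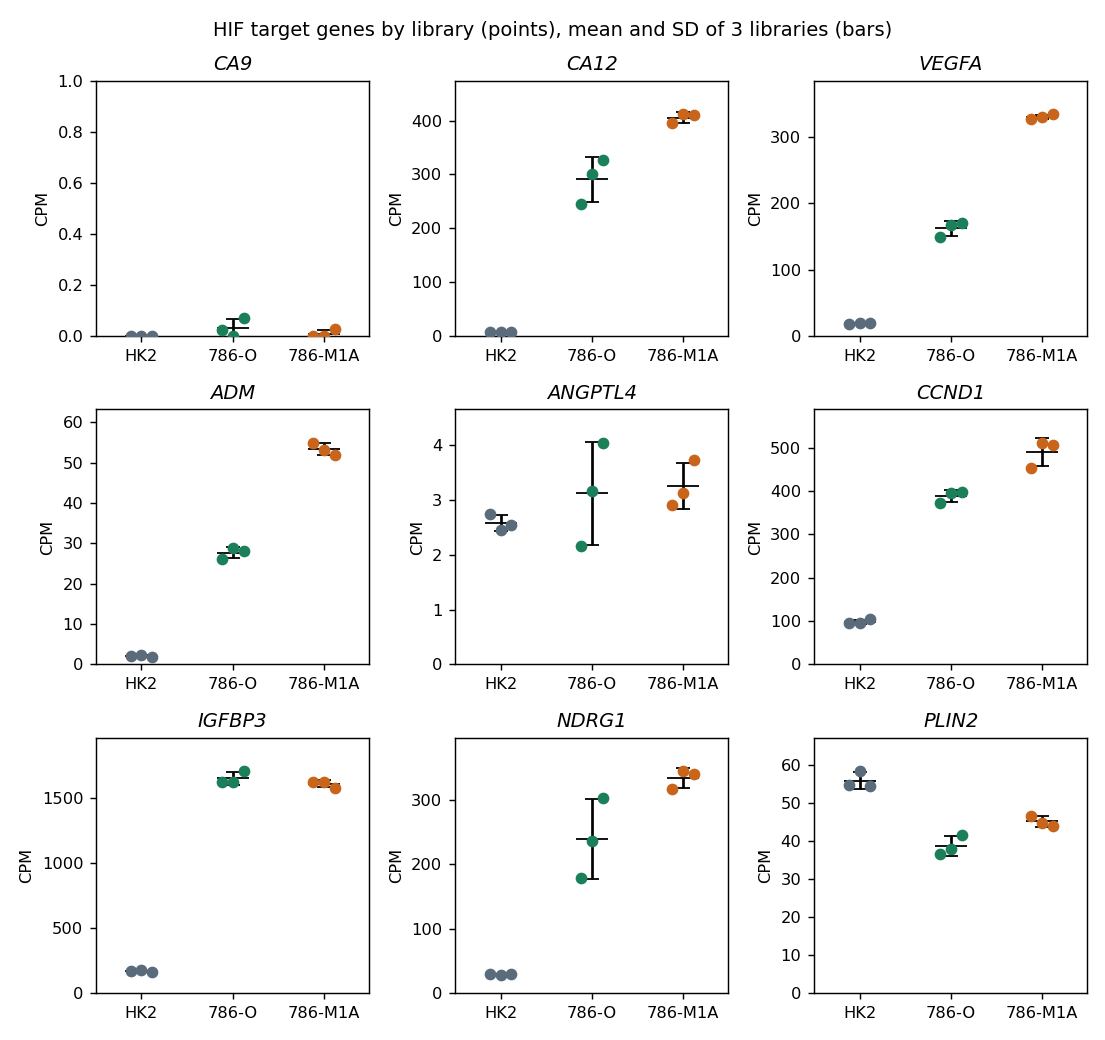
Each panel shows 1 gene with its CPM in the 3 libraries of HK2, 786-O and 786-M1A as points, and the mean with SD as bars, on linear axes that start at 0. CA12, VEGFA and ADM step up from HK2 over 786-O to 786-M1A without overlap of the lines, IGFBP3 is alike in the cancer lines (1577 to 1705 CPM), PLIN2 is highest in HK2 and CA9 stays under 0.1 CPM.

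CA9 and CA12 encode carbonic anhydrases of the cell surface that help cells to export acid. CA9 was at or under the floor in every library, and CA12 was above it in all of them. CA9 (chromosome 9, 35673928 to 35681159, plus strand, GRCh38) had 0 counts in all 3 HK2 libraries, 1, 0 and 3 counts in 786-O and 0, 0 and 1 count in 786-M1A. Every library was at or under the floor of 3 counts, so no fold is given and a difference was not detectable at this depth. CA9 shares 571 exonic bases with ARHGEF39 on the opposite strand, whose count reached 406, and the sources used here do not say if reads were counted by strand.

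CA12 (chromosome 15, 63321378 to 63381846, minus strand) gave 7.07, 6.72 and 7.72 CPM in HK2. It gave 245, 300.5 and 327 CPM in 786-O and 395, 412 and 411 CPM in 786-M1A. The 3 lines did not overlap, and 786-O spread the most. CA12 was 40.4-fold higher in 786-O than in HK2 (log2 fold change 5.33, SE 0.126, adjusted p = 2.40e-10 by edgeR's quasi-likelihood test) and ranked 125th from the top of the 12695 genes. In 786-M1A it was 56.3-fold higher than in HK2 (5.81, SE 0.127, adjusted p = 1.19e-10, edgeR). The step from 786-O to 786-M1A was 1.39-fold (0.48, SE 0.0914, adjusted p = 0.00199, edgeR).

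Among the genes of blood vessels, VEGFA encodes the growth factor that drives endothelial growth and is a main drug target in ccRCC. VEGFA (chromosome 6, 43770184 to 43786487, plus strand) gave 18.7, 19.8 and 19.5 CPM in HK2, 149, 168 and 170.0 CPM in 786-O, and 327, 329 and 334 CPM in 786-M1A. The lines were fully separate, and the 786-M1A libraries lay within 1.02-fold of each other. VEGFA was 8.37-fold higher in 786-O than in HK2 (log2 fold change 3.07, SE 0.0507, adjusted p = 1.11e-22, edgeR) and 17.0-fold higher in 786-M1A (4.09, SE 0.0515, adjusted p = 1.13e-24). The metastatic line exceeded 786-O by 2.03-fold (1.02, SE 0.0429, adjusted p = 1.51e-14, edgeR), just past the limit of 2-fold. Without replicate 1 of 786-O the log2 difference was 0.97, under that limit, and the call stood.

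ADM encodes adrenomedullin, a peptide that widens vessels. ADM (chromosome 11, 10305073 to 10307397, plus strand) gave 2.09, 2.36 and 1.83 CPM in HK2, 26.1, 28.9 and 28.2 CPM in 786-O, and 54.9, 53.2 and 52.0 CPM in 786-M1A. It followed the order of VEGFA, again with no overlap. ADM was 13.3-fold higher in 786-O (log2 fold change 3.73, SE 0.0815, adjusted p = 1.44e-20, edgeR) and 25.6-fold higher in 786-M1A than in HK2 (4.68, SE 0.0770, adjusted p = 8.67e-23). Limma on quantile-normalized log2 counts put the difference between 786-O and HK2 at 4.34, over 1.5 times the fold of edgeR. Between the cancer lines the difference was 1.93-fold (0.95, SE 0.0518, adjusted p = 1.34e-12, edgeR).

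ANGPTL4, a secreted protein that inhibits lipoprotein lipase and acts on vessels, differed from these. ANGPTL4 (chromosome 19, 8363289 to 8374370, plus strand) gave 2.73, 2.45 and 2.55 CPM in HK2, 2.16, 3.16 and 4.04 CPM in 786-O, and 2.90, 3.13 and 3.72 CPM in 786-M1A, from 85 to 171 counts a library. The 786-O libraries spanned both of the other lines, while those of 786-M1A lay just above HK2 without overlap (as did 85.0% of all genes in this comparison, in either direction). The log2 fold change was 0.27 (SE 0.182, adjusted p = 0.173, edgeR) in 786-O and 0.34 (SE 0.184, adjusted p = 0.0967) in 786-M1A against HK2, and 0.07 (SE 0.175, adjusted p = 0.773) between the cancer lines. Without replicate 1 of 786-O, ANGPTL4 was called higher in 786-O than in HK2 (0.50, adjusted p = 0.00271, edgeR), and without replicate 3 the difference was 0.04 (adjusted p = 0.839). Limma on quantile-normalized log2 counts called ANGPTL4 in both comparisons with HK2, at log2 fold changes of 0.85 for 786-O and 1.12 for 786-M1A.

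CCND1 encodes cyclin D1, which drives cells from G1 into S phase. CCND1 (chromosome 11, 69641156 to 69654474, plus strand) gave 96.7, 95.9 and 104 CPM in HK2, 373, 396 and 397 CPM in 786-O, and 453, 511 and 505 CPM in 786-M1A. The order of the lines was that of CA12, with no overlap. CCND1 was 3.92-fold higher in 786-O (log2 fold change 1.97, SE 0.0484, adjusted p = 1.43e-18, edgeR) and 4.94-fold higher in 786-M1A than in HK2 (2.30, SE 0.0488, adjusted p = 1.11e-19), and 1.26-fold higher in 786-M1A than in 786-O (0.33, SE 0.0457, adjusted p = 3.65e-06). It shares 497 exonic bases with LTO1 on the opposite strand, a gene with at most 573 counts in any library, against at least 3009 counts for CCND1.

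IGFBP3 encodes a secreted protein that binds insulin-like growth factors. IGFBP3 (chromosome 7, 45912245 to 45921874, minus strand) gave 165, 173 and 164 CPM in HK2, 1620.4, 1623 and 1705 CPM in 786-O, and 1624, 1623 and 1577 CPM in 786-M1A. Both cancer lines were far above HK2 and overlapped each other. IGFBP3 was 9.86-fold higher in 786-O (log2 fold change 3.30, SE 0.0368, adjusted p = 1.63e-25, edgeR) and 9.61-fold higher in 786-M1A than in HK2 (3.26, SE 0.0367, adjusted p = 1.73e-25). The cancer lines differed by -0.04 (SE 0.0333, adjusted p = 0.358, edgeR).

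NDRG1 is a stress response gene that responds strongly to hypoxia in many cell types. NDRG1 (chromosome 8, 133237175 to 133302022, minus strand) gave 29.3, 28.5 and 28.8 CPM in HK2, 179, 236 and 303 CPM in 786-O, and 316, 345 and 341 CPM in 786-M1A. The HK2 libraries lay within 1.03-fold of each other and those of 786-O within 1.69-fold, yet no lines overlapped. NDRG1 was 8.28-fold higher in 786-O (log2 fold change 3.05, SE 0.203, adjusted p = 5.84e-06, edgeR) and 11.6-fold higher in 786-M1A than in HK2 (3.53, SE 0.205, adjusted p = 2.48e-06). The step from 786-O to 786-M1A, 0.48 (SE 0.176, adjusted p = 0.0561, edgeR), was not called, although 61.6% of all genes were like NDRG1 in having no overlap there. It was called without replicate 1 of 786-O (0.32, adjusted p = 0.0170) and without replicate 3 (0.69, adjusted p = 3.12e-04), in each of which the 786-O spread was smaller by construction. DESeq2 (0.49), limma with voom (0.51), quantile limma (0.48) and the fit with a replicate block (0.50) also called it.

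PLIN2 coats lipid droplets, and it was the single target that was lower in both cancer lines. PLIN2 (chromosome 9, 19108375 to 19149290, minus strand) gave 54.7, 58.3 and 54.4 CPM in HK2, 36.5, 38.0 and 41.5 CPM in 786-O, and 46.6, 44.7 and 43.9 CPM in 786-M1A. HK2 was highest, 786-O lowest, and the lines did not overlap. Against HK2, PLIN2 was 1.44-fold lower in 786-O (log2 fold change -0.53, SE 0.0503, adjusted p = 2.45e-09, edgeR) and 1.24-fold lower in 786-M1A (-0.31, SE 0.0501, adjusted p = 7.14e-06). It was 1.17-fold higher in 786-M1A than in 786-O (0.22, SE 0.0511, adjusted p = 9.00e-04). These differences are small among all genes tested, of which 44.7% differed by at least as much as PLIN2 between 786-O and HK2.

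**Figure D2:**
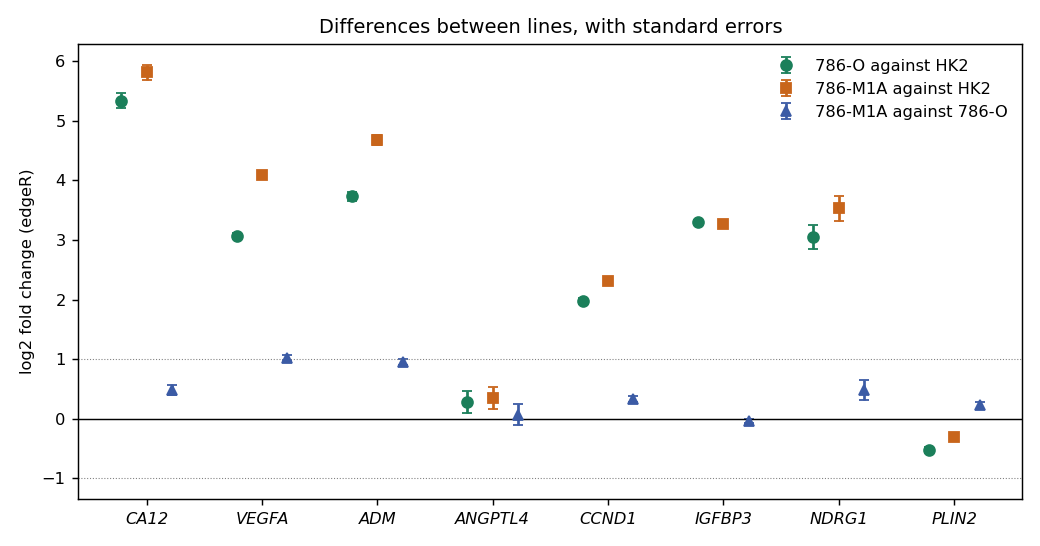
Log2 fold changes of the 8 tested genes (vertical axis) from edgeR for 786-O against HK2 (circles), 786-M1A against HK2 (squares) and 786-M1A against 786-O (triangles), with SE as bars and dotted lines at 2-fold. CA12 reaches 5.81, the triangles of VEGFA and ADM lie at 1.02 and 0.95, and PLIN2 is below 0 in both comparisons with HK2.

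Levels of different genes can be compared only per length, here as CPM per kilobase (kb) of annotated exon. By this measure IGFBP3 was the highest of the 9 genes in every line, with 36.6 CPM per kb in HK2 against 361 in 786-O, and with 352 in 786-M1A. CCND1 came next, with 20.8 CPM per kb in HK2 against 81.7 in 786-O, and with 103 in 786-M1A. PLIN2 ranked 3 of 9 in HK2 at 11.1 CPM per kb and 7 of 9 in the cancer lines at 7.72 and 9.001, while CA12 moved from rank 7 at 1.03 to rank 3 at 41.6 and 58.0. Divided by the length of the canonical transcript in place of all exons, IGFBP3 stayed first, PLIN2 came before CCND1 in HK2, and CA12 ranked 4 in 786-O, behind IGFBP3, CCND1 and NDRG1, and 5 in 786-M1A, where VEGFA also came before it.

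The spread between libraries of 1 line differed among the genes. In 786-O, replicate 1 had the lowest level of all 8 tested targets, and replicate 3 the highest of 7. Over all genes tested, 36.6% were lowest in replicate 1 and 36.7% were highest there. Of 50 other HIF target genes, 24 were lowest and 23 highest in it, so the list as a whole was not lowered in this library. The ratio of the highest to the lowest library in 786-O was 1.87 for ANGPTL4, 1.69 for NDRG1 and 1.33 for CA12. Only 1.18%, 1.66% and 5.70% of all genes had as large an SD of log2 CPM in this line as these 3 genes. In HK2 the lowest library was replicate 1 for 1 target, replicate 2 for 4 and replicate 3 for 3, and in 786-M1A it was replicate 1 for 5 and replicate 3 for 3. Without replicate 1 of 786-O, the 6 targets that were higher and PLIN2, which was lower, kept their calls against HK2.

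**Figure D3:**
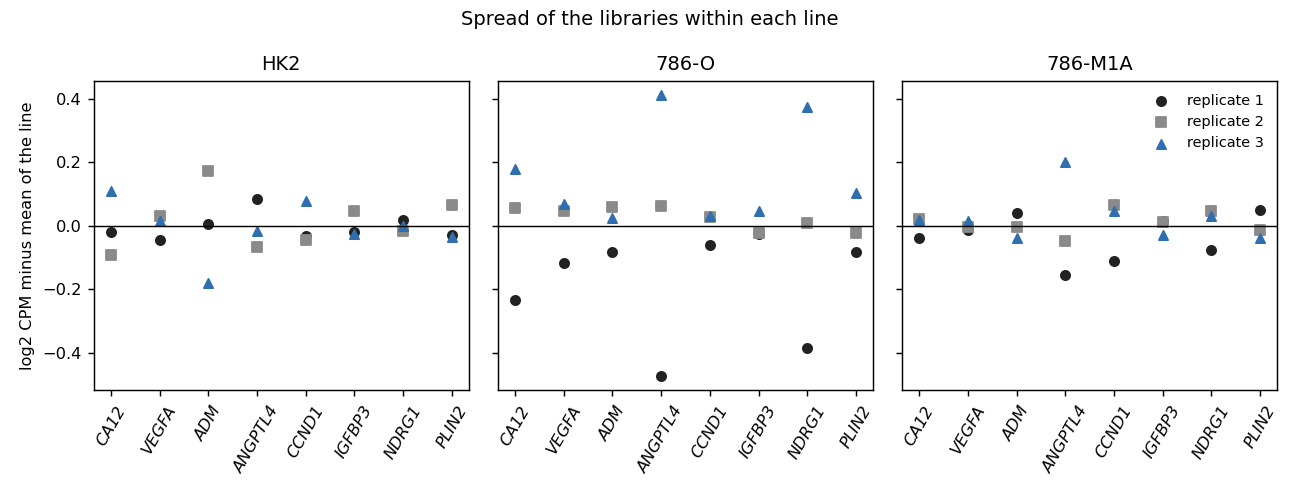
Deviation of each library from its line's mean, in log2 CPM (vertical axis), for the 8 tested genes in HK2, 786-O and 786-M1A (panels), with replicates 1, 2 and 3 as circles, squares and triangles. In 786-O the circles lie below 0 for all 8 genes, furthest for ANGPTL4 and NDRG1, and in 786-M1A they lie lowest for 5 genes, again furthest for ANGPTL4 (-0.15).

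The regulators of these genes were themselves measured. VHL RNA was present in all 3 lines, at 31.5 ± 1.11 CPM in HK2, at 28.9 ± 1.245 in 786-O, and at 30.3 ± 0.935 in 786-M1A (SD, n = 3). It was slightly lower in 786-O than in HK2 (log2 fold change -0.12, SE 0.04998, adjusted p = 0.0261, edgeR), and RNA does not show whether the protein works. HIF1A RNA lay at 699.9 ± 20.1 CPM in HK2, and was lower at 9.995 ± 0.388 CPM in 786-O (log2 fold change -6.13) and 6.77 ± 0.219 CPM in 786-M1A (-6.69). EPAS1 RNA was also lower, at 303 ± 18.3 CPM in HK2, at 78.9 ± 1.36 in 786-O, and at 123 ± 4.43 in 786-M1A. ARNT differed by at most 0.30 on the log2 scale among the lines. EPAS1 was 1.55-fold higher in 786-M1A than in 786-O (log2 fold change 0.63, SE 0.0444, adjusted p = 8.02e-11, edgeR), a comparison in which CA12, VEGFA, ADM, CCND1 and PLIN2 were also higher, and a link between them was not tested.

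A list of 56 other genes known to respond to HIF is set beside the 9. Both were chosen with earlier results of these data known, so the list cannot show how far the 9 stand for the pathway. All 56 were in the table and 50 were tested, while NDUFA4L2, ANKRD37, EPO, FLT1, TF and RORA were under the filter. In 786-O against HK2, 27 of the 50 were higher, 17 lower and 6 not called, 15 and 6 of them by at least 2-fold, and their median log2 fold change was 0.24. The background to these counts is that 41.6% of all genes were higher and 42.6% lower, 9.18% and 13.1% by at least 2-fold. In 786-M1A against HK2, 31 of the 50 were higher and 16 of the 50 lower, beside 41.6% and 43.3% of all genes. By at least 2-fold, 17 of the 50 were higher and 6 of the 50 lower, beside 10.4% and 15.0% of all genes. The median log2 fold change of the 50 was 0.42. In 786-M1A against 786-O, 28 of the 50 were higher and 10 of the 50 lower, beside 27.9% and 28.0% of all genes. By at least 2-fold, 4 of the 50 were higher and 1 of the 50 lower, beside 2.03% and 4.55% of all genes. Their median here was 0.14.

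The groups of this list are given by their counts in 786-O against HK2, with no test between groups, beside the 41.6% of all genes that were higher, the 42.6% that were lower and the 9.18% that were at least 2-fold higher. Of the 17 genes of glucose uptake and glycolysis, 11 were higher in 786-O than in HK2, 6 of them by at least 2-fold, and 5 were lower. Of the 7 matrix genes, 6 were higher in 786-O and 1, LOX, was lower. The mitochondrial group held 1 higher and 3 lower among 4 tested genes. Of the 9 tested genes of lipid, iron and stress, 3 were higher and 5 lower in 786-O, and PLIN2 was lower there too. The oxygen-sensing group gave 3 higher, 2 lower and 1 not called, and the 7 tested secreted factors and receptors gave 3, 1 and 3.

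The genes of the list with the largest called differences without overlap of the lines were led by CP, EGLN3 and TGFA in 786-O and by CP, CXCR4 and EGLN3 in 786-M1A, both against HK2. CXCR4 passed the filter on low counts only through its 651 counts in 786-M1A, and CP only through the cancer lines. A large difference was thus built into their being tested, and they are among the genes counted past 2-fold. CP, which encodes the copper-carrying ferroxidase ceruloplasmin, had 21 counts over the 3 HK2 libraries and 65.8 ± 7.15 CPM in 786-O and 67.0 ± 6.95 in 786-M1A. The ratio of its count shares to HK2 was 359 in 786-O (exact 95% interval 235 to 581, counting error only). EGLN3, a prolyl hydroxylase that marks HIF for destruction and is itself a target, stepped up like VEGFA, from 1.72 ± 0.242 CPM in HK2 to 49.98 ± 5.93 in 786-O and 127 ± 3.34 in 786-M1A. TGFA, a ligand of the EGF receptor, went from 21.8 ± 0.976 CPM to 328 ± 42.9 CPM in 786-O (log2 fold change 3.92, SE 0.0973, adjusted p = 4.25e-11, edgeR).

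Among the genes that went down, LOX, which crosslinks collagen, lay at 43.5 ± 2.47 CPM in HK2, at 2.60 ± 0.361 in 786-O, and at 13.6 ± 0.804 in 786-M1A. STC2, a secreted glycoprotein, followed the same course, at 88.5 ± 1.06, 12.4 ± 0.839 and 63.6 ± 2.78 CPM. Both were lowest in 786-O, as PLIN2 was. CITED2, which competes with HIF for its coactivator, was lower in 786-O (log2 fold change -2.24, SE 0.0539, adjusted p = 9.88e-19, edgeR) and in 786-M1A (-2.17, SE 0.0540, adjusted p = 1.50e-18) than in HK2. VLDLR, a lipoprotein receptor, was lower in 786-M1A than in HK2 (-1.57, SE 0.0436, adjusted p = 8.43e-19, edgeR).

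Between the cancer lines, the receptor CXCR4 had 10 counts over the 786-O libraries and 5.80 ± 0.559 CPM in 786-M1A, a ratio of count shares of 69.5 (exact 95% interval 37.6 to 146), and LOX (log2 fold change 2.39) and STC2 (2.35) came next. Against HK2, where CXCR4 had 3 counts in all, the ratio was 214 (73.0 to 1.04e+03). The place of CXCR4 in both comparisons follows in part from the filter, which it passed only through 786-M1A. EFNA1, an ephrin ligand (log2 fold change -1.13, SE 0.105), and the glycolytic regulators PFKFB4 (-0.61, SE 0.0606) and PFKFB3 (-0.49, SE 0.0410) were the most lowered in 786-M1A among listed genes whose libraries did not overlap. All were called by edgeR, with the largest adjusted p of these 3 at 2.20e-08.

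**Figure D4:**
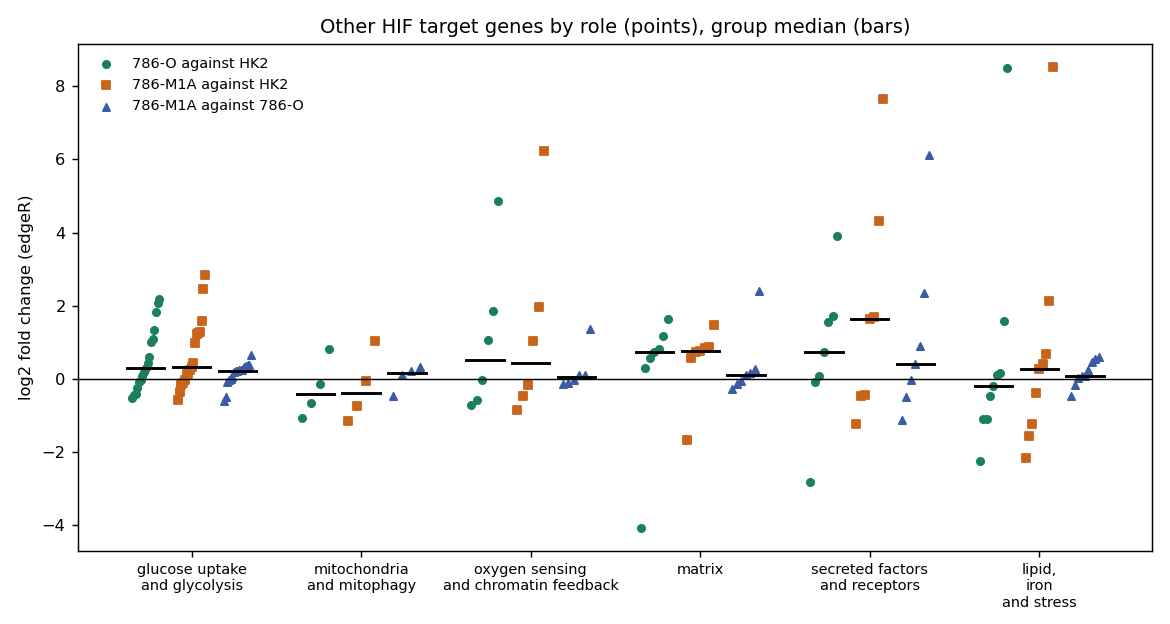
Log2 fold changes from edgeR (vertical axis) of the 50 other HIF targets tested, as points grouped by role, for 786-O against HK2 (circles), 786-M1A against HK2 (squares) and 786-M1A against 786-O (triangles), with group medians as bars. Group medians lie between -0.41 and 1.63, the highest squares are CP, CXCR4 and EGLN3, and the highest triangles are CXCR4, LOX and STC2. The values of CXCR4 rest on 3 counts in HK2 and 10 in 786-O.

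The genes whose pattern over the 3 lines was most like that of each target were found by the Euclidean distance between mean log2 CPM profiles, each centred on its own mean. The nearest were CORO2B and DEPP1 for CA12 (distances 0.116 and 0.131), TPM2 and POU5F1B for VEGFA (0.114 and 0.120), and VPS35L and ENPEP for ADM (0.0884 and 0.131). For CCND1 they were CRAT and FLJ32255 (0.0245 and 0.0323), for IGFBP3 HOXC8 and LINC03104 (0.0657 and 0.0783), and for NDRG1 NMRK1 and SMIM3 (0.105 and 0.123). ANGPTL4 had C1orf216 and SLC25A22 as nearest (0.00148 and 0.00201), and PLIN2 had APPL2 and DDX51 (0.00900 and 0.0106), in a region of small differences where many genes lie. The smallest distance between a pair of the targets was 0.389, between IGFBP3 and NDRG1. With 3 lines as points, these distances are descriptions. In HK2, CORO2B (0.068 CPM) and TPM2 (0.113 CPM) lay near the floor, and POU5F1B and HOXC8 lay at 0.26 CPM. The profiles of these genes therefore rest on few counts in HK2.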

How the data were processed

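The authors prepared TruSeq Stranded mRNA libraries and counted reads on hg38 with the Rsubread package (featureCounts and GRCh38 per the labels); they deposited whole-number counts per NCBI gene identifier, without normalization. The annotation version and the strand setting are not given in the sources used here. All 9 columns were mapped to a library by their names.

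Symbols came from RefSeq (27745 of 28395 identifiers matched), positions and exon lengths from GENCODE on GRCh38. Counts were scaled by TMM and tested with edgeR 4.0.16 (robust quasi-likelihood, R 4.3.3) in 1 fit of all 9 libraries, with a coefficient per line and the study's filter, a mean of at least 50 counts. Benjamini-Hochberg adjustment covered the 12695 genes tested. The SE was derived from the fold change and the F statistic. Counting intervals and floors cover counting error only.

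The 9 genes, the list of 56 genes and the tests were chosen with earlier results of these data known. Named beside the 9 were VHL, HIF1A, EPAS1 and ARNT, the 3 listed genes with the largest called difference without overlap in each direction and comparison, and the 2 nearest profiles of each target.

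Alternatives were RLE and upper-quartile scaling, DESeq2 1.42.0, limma 3.58.1 with voom, limma on quantile-normalized log2 counts with 0 set to 0.5 (in place of VSN, which was not run), other filters, only the 2 lines compared, a replicate block, and leaving out each library. The fits were run on simulated counts of 12695 genes, with 200 changed in 786-M1A and 1 mean for all lines otherwise. For 786-M1A against 786-O, edgeR called 34 of 50 genes changed by 1.25-fold and 50 of 50 changed by 2-fold. It also called 15 unchanged genes. In the real data most genes differ between the lines, and this setting does not cover that.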

Additional observations from a re-analysis of the deposited data

Results flagged for a closer look

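For 5 of the 8 tested targets, the difference from HK2 was not the same size in the cancer lines, by the edgeR contrast of 786-M1A against 786-O, which is the test of that difference itself. This share is close to that of all genes tested, of which 56.0% were called in this contrast in either direction. All 5 were higher in 786-M1A, where 27.9% of all genes were called higher, and no test was run on this set. The log2 fold change against HK2 was larger in 786-M1A by 1.02 for VEGFA (4.09 against 3.07), by 0.95 for ADM (4.68 against 3.73), by 0.48 for CA12 (5.81 against 5.33) and by 0.33 for CCND1 (2.30 against 1.97). For PLIN2 it was higher by 0.22, so that this gene was less lowered in 786-M1A (-0.31) than in 786-O (-0.53). Their adjusted p-values ran from 1.51e-14 for VEGFA to 0.00199 for CA12, and for each of these 5 genes all 3 libraries of 786-M1A lay above those of 786-O (61.6% of all genes had no overlap, in either direction).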

How the results depend on the processing

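Over the alternatives run, counts of targets called and of genes past 2-fold stayed within 1.5 times, except 1. The count of targets past 2-fold in 786-M1A against 786-O, 1 in edgeR, was 0 with limma on quantile-normalized counts and ranged from 0 to 1 when a library was left out, the 0 coming without replicate 1 of 786-O (VEGFA). In 786-O against HK2, ANGPTL4 was called by limma on quantile-normalized counts (0.85), without a filter (0.30) and without replicate 1 of 786-O (0.50). In 786-M1A against HK2 it was called by quantile limma (1.12), without a filter (0.37) and with only the 2 lines compared (0.35). Between the cancer lines, ANGPTL4 turned to -0.15 without replicate 1 of 786-O and to -0.03 without replicate 3 of 786-M1A, in a range of -0.15 to 0.31 over the libraries left out. NDRG1 in 786-M1A against 786-O was called by DESeq2 (0.49), voom (0.51) and quantile limma (0.48), and IGFBP3 by quantile limma (-0.20). The cause was not tested. The other 344 values of single targets kept direction and call.

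The replicate numbers were not used to pair the libraries in the main fit. The correlations of same-numbered deviations ran from -0.167 to 0.215. Between the cancer lines they were 0.215, 0.0740 and 0.110, and whether the numbers pair these libraries was not settled. With the replicate block, ANGPTL4 in 786-M1A against HK2 (0.36, adjusted p = 0.0399, edgeR) and NDRG1 in 786-M1A against 786-O (0.50, adjusted p = 0.0447) were called, and no other target changed its call.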
